A study of Mus musculus with 24 samples.

Results

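R1 mouse embryonic stem (ES) cells in which Med12 was knocked down with either of 2 lentiviral short hairpins, shMed12-1 and shMed12-2, were compared with each other 13 days after infection. The comparison uses 6 of the 24 arrays of the series, 3 per hairpin, chosen by their titles alone, and 3 further arrays of cells infected with a non-targeting hairpin (shNTC) for the same time serve as the control background. Each array co-hybridised the RNA of the cells, labelled with Cy5, with a universal mouse reference RNA from a mixture of cell lines, labelled with Cy3, and 750 ng of labelled cRNA was applied with no dye swap. The remaining 15 arrays are 2 Cdk8 hairpins on days 8 and 13 and shNTC on day 8. They enter the estimate of the spread, the filter that chose the genes tested and the fits that take account of the slide. All cells carried a lentiviral hairpin, so no uninfected cells are part of the comparison. GEO's labels call the replicates biological without saying that they were separate infections or cultures, so every p-value measures the spread between these arrays, which may be technical. Values are log2 ratios of Cy5 to Cy3, so 1 unit is a 2-fold difference, and differences are given as shMed12-1 minus shMed12-2 unless another contrast is named.

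Med12 is a subunit of the Mediator kinase module, together with a cyclin-dependent kinase (Cdk8 or its paralogue Cdk19), cyclin C (Ccnc) and Med13 or Med13l. Med12 binds cyclin C and activates the kinase, and the module associates reversibly with core Mediator, the complex that relays signals from transcription factors to RNA polymerase II. Because hairpins can also act on transcripts other than their target, 2 hairpins against 1 gene are commonly used side by side, and the question here is which transcripts differed between them although both lowered Med12.

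The 8 markers of ES cells (Pou5f1, Sox2, Zfp42, Esrrb, Klf4, Dppa4, Dppa5a and Utf1) were well above background on all 6 arrays, with a median log2 ratio of 6.50 to 7.28 in shMed12-1 and 7.10 to 7.29 in shMed12-2. Between 57.4% and 72.5% of the Cy5 spots on these arrays were well above background. The shMed12-2 arrays stood apart in 1 respect that their labels do not explain. Genes of hepatocytes, such as albumin and the fibrinogen chains, were high on them and unevenly so: over 44 such genes (a list drawn up after these values were seen) the median log2 ratio was 2.85, 0.72 and 1.18 on shMed12-2 replicates 1, 2 and 3. It was 0.16, 0.29 and 0.11 on the shMed12-1 arrays and 0.26, 0.25 and 0.43 on the shNTC arrays of day 13. Counts of list members are therefore also given without shMed12-2 replicate 1, or without replicates 1 and 3, where that moved the number called by over 1.5 times, and for some other lists. In addition, the shMed12-1 arrays lay on slides 4, 5 and 6 and the shMed12-2 arrays on slides 1, 2 and 3, so no slide held both hairpins. A fit with slide as a fixed block compares the hairpins through the other groups that span these slides, and it is named where it changed the call of a named gene or moved the number called in a list by over 1.5 times.

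Med12 itself was lowered by both hairpins. Its log2 ratio was -1.94, -1.91 and -1.99 on the shMed12-1 arrays, -1.78, -1.90 and -1.72 on the shMed12-2 arrays and -0.97, -0.79 and -0.86 on the shNTC arrays. All 6 knockdown arrays lay below all 3 controls, and the shMed12-1 arrays were all slightly below the shMed12-2 arrays. Against shNTC, Med12 fell by 1.08 with shMed12-1 and by 0.93 with shMed12-2 (limma, adjusted p = 5.8e-10 and 4.9e-09), which left 47.4% and 52.6% of the control level. The difference between the hairpins was -0.15 (SE 0.07, 95% interval -0.29 to -0.01, adjusted p = 0.092 over all genes). A further Med12 probe gave a larger difference of -0.34, with 36.2% of the control level left in shMed12-1 and 45.7% in shMed12-2, and with the mean over both probes the difference was -0.24 and passed the threshold (adjusted p = 0.0062). The difference was also called without shMed12-2 replicate 2 (-0.20, adjusted p = 0.046) and from the Cy5 signal alone (-0.30, adjusted p = 0.019), so whether the knockdowns differed in depth depends on the probe, on 1 array and on the signal used.

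The other measured parts of the kinase module differed little between the hairpins. Cdk8, the kinase, was at -0.36, -0.31 and -0.30 in shMed12-1, at -0.57, -0.62 and -0.57 in shMed12-2 and at -0.43, -0.41 and -0.29 in shNTC. The hairpins' arrays did not overlap, but the difference of 0.26 (SE 0.10) just missed the threshold (adjusted p = 0.051), and it was 0.55 with slide as a fixed block (adjusted p = 0.017). The kinase paralogue Cdk19 differed by 0.12 (95% interval -0.01 to 0.24), cyclin C by -0.06 (-0.27 to 0.15) and Med13l by 0.07 (-0.20 to 0.33), none of them called. Of 23 measured genes of core Mediator, 4 were higher and 5 lower in shMed12-1, all by small amounts, from Med18 (-0.31) and Med30 (-0.30) to Med26 (0.25). With slide as a fixed block 1 was higher and 2 were lower, Med30 among them (adjusted p = 0.0095) but neither Med18 nor Med26, and without shMed12-2 replicates 1 and 3 none was higher and 3 were lower.

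**Figure D1:**
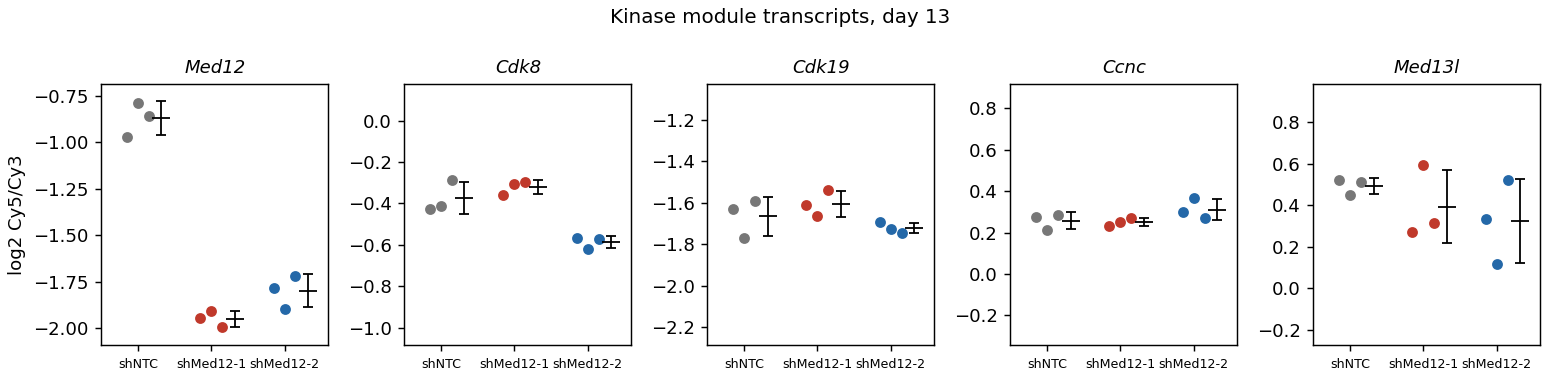
Log2 Cy5/Cy3 ratio of 5 kinase module transcripts (vertical axes, each panel spanning its own range) on the 3 arrays each of shNTC, shMed12-1 and shMed12-2 on day 13; points are arrays, and the black bar gives mean ± SD (n = 3). Med12 has a mean of -1.95 with shMed12-1, -1.80 with shMed12-2 and -0.87 in shNTC, whereas the other transcripts lie close to their shNTC values.

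Across the array, 6798 of 22404 genes (30.3%) were called different between the hairpins at an adjusted p under 0.05, 3344 of them (14.9%) higher and 3454 (15.4%) lower in shMed12-1 (8906, or 39.8%, at an unadjusted p under 0.05). With arrays centred on the median in place of the intensity-dependent correction, the median difference over all genes was 0.0788. In that setting 1157 genes were called, and their split moved to 817 higher and 340 lower. Scaling between arrays gave 4377. The 3 arrays of one hairpin lay entirely above or below those of the other for 10281 genes (45.9%). Most of these differences were small: 465 genes (2.08%) were called and differed at least 2-fold, 232 higher (1.04%) and 233 lower (1.04%). That number was 138 with either normexp background correction, 164 with median centring, 166 from the Cy5 signal alone and 203 among probes measured in both channels. The number of genes called between the hairpins is close to that called for either hairpin against shNTC, 6672 (29.8%; 2862 higher, 12.8%, and 3810 lower, 17%) for shMed12-1 and 5910 (26.4%; 2605 higher, 11.6%, and 3305 lower, 14.8%) for shMed12-2. With slide as a fixed block 3796 genes (16.9%) were called, 2044 higher (9.12%) and 1752 lower (7.82%), and 3193 genes (14.3%) were called in the same direction with and without that block. Without shMed12-2 replicate 1 the count was 5903, and without replicates 1 and 3 it was 4041. Replicates were close together, with a median SD per gene of 0.08 with shMed12-1 and 0.09 with shMed12-2, so that differences well under 2-fold passed the threshold, and the counts of list members below are to be read against the 30.3% of all genes that were called and an overall median difference of -0.0058.

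Genes of the trophectoderm, the outer epithelium of the blastocyst that forms the placenta, had the highest list median in favour of shMed12-1 among the 28 lists. Of 17 tested genes of a list of 23, 10 were called higher and none lower, with a list median of 0.87, and 10 were also called higher in each of the fits that left out shMed12-2 replicate 1, or replicates 1 and 3. The intermediate filament keratin Krt7 was at 2.84, 2.91 and 2.95 in shMed12-1, at 0.69, 0.79 and 0.82 in shMed12-2 and at 0.10, 0.12 and 0.25 in shNTC. The 3 groups did not overlap, and the difference between the hairpins was 2.13 (SE 0.10, adjusted p = 2.9e-11), or 4.39-fold.

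Krt18, which pairs with Krt8 in simple epithelia, showed the same order on every array. It stood at 1.60, 1.62 and 1.56 in shMed12-1, at 0.28, 0.39 and 0.27 in shMed12-2 and at -1.02, -1.02 and -0.98 in shNTC, a difference of 1.29 between the hairpins (adjusted p = 7.4e-13). Both hairpins thus raised Krt18 over shNTC, by 2.60 and by 1.32. Krt8 followed with 2.25 and 1.21 over shNTC and differed by 1.04 between the hairpins, or by 1.06 on its other probe. Gata3, a transcription factor of the trophectoderm lineage, was 2.11 above shNTC with shMed12-1 and 0.89 above it with shMed12-2, a difference of 1.22 (adjusted p = 2.5e-09).

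Other members of that list were raised with shMed12-1 and near the control with shMed12-2. The placental homeobox gene Esx1 was at 4.98, 5.24 and 5.73 in shMed12-1, at 3.52, 3.74 and 3.72 in shMed12-2 and at 3.70, 3.86 and 3.86 in shNTC (difference 1.66, adjusted p = 3.7e-07). The placental gene Plac1 differed by 1.33 and the BMP ligand Bmp8b by 1.31. Cdx2, a lineage-defining factor of the trophectoderm, was higher on all 3 shMed12-1 arrays (8.43, 8.00 and 8.62 against 7.24, 7.57 and 7.64) but its difference of 0.87 had an SE of 0.60 and was not called, and the reference channel was not well above background for it on any of the 6 arrays. Eomes, another such factor, gave -0.90 and was not called (adjusted p = 0.25). Because the RNA is from whole cultures, a larger share of cells of a type and more RNA per cell cannot be told apart here.

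Beyond that list, the largest differences in the same direction include several genes measured well on every array. Gata2, a transcription factor of blood and trophoblast cells, was at 0.51, 0.49 and 0.56 in shMed12-1 and at -1.43, -1.38 and -1.23 in shMed12-2, with shNTC at -1.45, -1.67 and -1.57. Here shMed12-2 lay just above shNTC, by 0.21 (not called), while shMed12-1 stood far above both, and the difference of 1.87 (SE 0.09, adjusted p = 4.7e-11) was 2.13 on another probe. Gsn encodes gelsolin, which severs actin filaments.

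Gsn had a like pattern, with -2.40, -2.41 and -2.44 in shMed12-1 against -4.43, -4.40 and -4.48 in shMed12-2 and -4.51, -4.50 and -4.50 in shNTC (difference 2.02, SE 0.05, adjusted p = 4.5e-15). Plac8 was 0.64, 0.50 and 0.57 against -1.50, -1.53 and -1.49, with shNTC in between at -0.16, -0.28 and -0.26. Its difference of 2.08 (adjusted p = 6.6e-14) thus combined a rise of 0.81 over shNTC with shMed12-1 and a fall of 1.27 with shMed12-2.

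The highest difference among genes with a symbol whose arrays did not overlap belonged to a gene that was low in shMed12-2. Hal, which encodes histidine ammonia-lyase, the first enzyme of histidine breakdown, was at 1.33, 1.35 and 1.45 in shMed12-1, at -1.098, -1.25 and -1.17 in shMed12-2 and at 1.74, 1.67 and 1.81 in shNTC. It fell by 2.91 against shNTC with shMed12-2 and by 0.37 with shMed12-1, a difference of 2.55 (SE 0.08, adjusted p = 3.5e-13). Of the other genes among the 15 highest differences, Xlr5c, Cd300lf, Ppbp, Ifi27l2b and BC051019 were not well above background on any shMed12-2 array, so only a bound holds. Their levels in shMed12-1 were at least 1.2007-, 1.57-, 1.73-, 1.54- and 1.34-fold higher, bounds taken between normalized Cy5 signals and open to dye bias (adjusted p = 8.5e-05, 0.034, 0.00024, 0.00015 and 0.039 in the fit of the ratios). Xlr5c was well above background on 1 of 3 and Cd300lf on 2 of 3 shMed12-1 arrays. The differences of Casq1 (2.19), Cox8c (2.13), Fhl4 (2.05) and Arg2 (1.81) rest on probes that were dim in shMed12-2 or in the reference. With slide as a fixed block, Cd300lf, Casq1, Cox8c, BC051019 and Arg2 were no longer called, and without shMed12-2 replicate 1 BC051019 was not (1.44, adjusted p = 0.17).

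**Figure D2:**
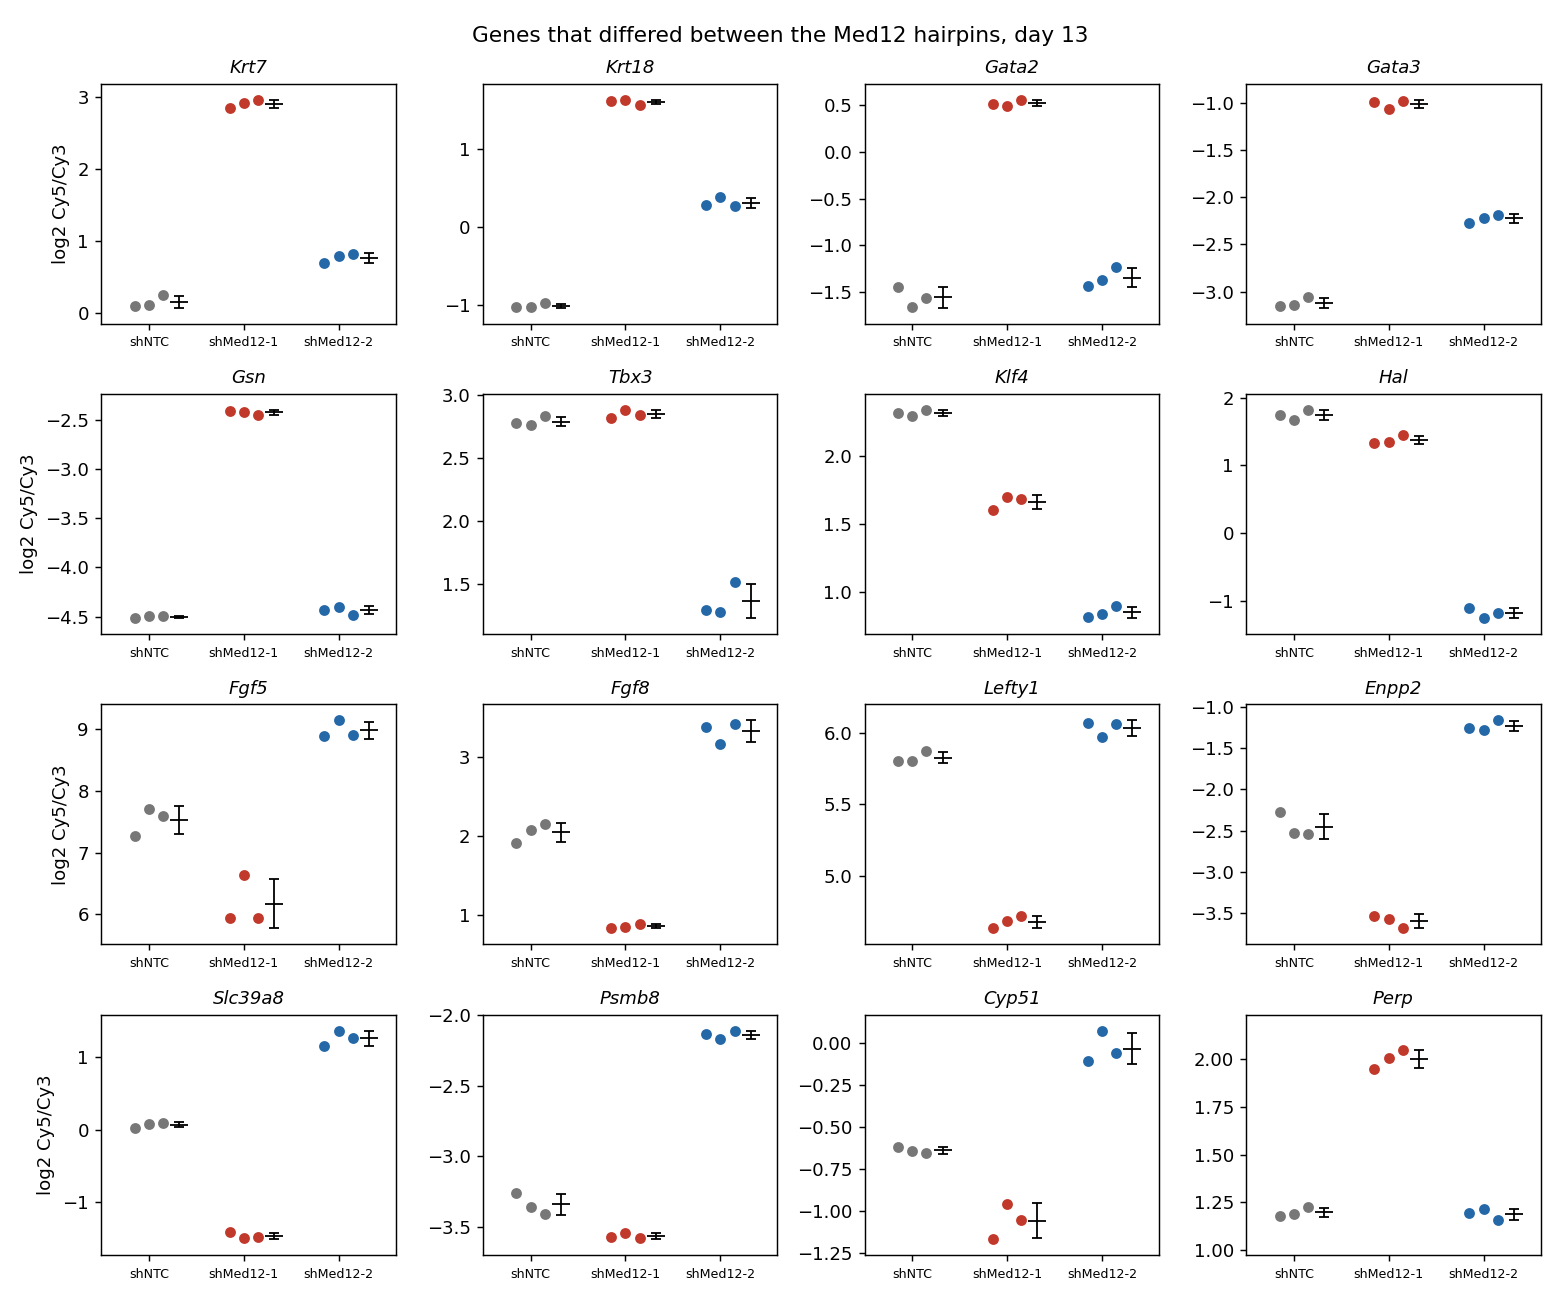
Log2 Cy5/Cy3 ratio (vertical axes, each panel spanning its own range) of 16 genes that differed between the Med12 hairpins, on the 3 arrays each of shNTC, shMed12-1 and shMed12-2 on day 13; points are arrays, and the black bar gives mean ± SD (n = 3). In all 16 panels the 3 shMed12-1 points lie entirely above or entirely below the 3 shMed12-2 points. In Fgf5, Fgf8, Lefty1, Enpp2, Slc39a8, Psmb8 and Cyp51 the shNTC points lie between those of the hairpins.

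Genes of the primed epiblast, the later pluripotent state that precedes gastrulation, went the other way. Of 17 tested genes of a list of 18, 11 were called lower in shMed12-1 and none higher, with a list median of -0.78. The count was 10 without shMed12-2 replicate 1 and 10 without replicates 1 and 3, and 7 with slide as a fixed block. Fgf5, the growth factor that most commonly marks this state, was at 5.94, 6.64 and 5.94 in shMed12-1, at 8.89, 9.14 and 8.91 in shMed12-2 and at 7.27, 7.70 and 7.60 in shNTC.

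The shNTC arrays lay between the hairpins without overlap, so Fgf5 was 1.35 below shNTC with shMed12-1 and 1.46 above it with shMed12-2, a difference of -2.81 (SE 0.46, adjusted p = 0.00012). The reference was not well above background for Fgf5 on any of the 6 arrays, so the size of its ratio depends on a dim denominator. The serine/threonine kinase gene Pim2 differed by -1.15, the mesoderm and primitive streak factor T (brachyury) by -1.13, Sall2 by -1.08 and the de novo DNA methyltransferase Dnmt3b by -0.78. T was at 1.58, 1.58 and 1.89 in shMed12-1 and at 2.62, 2.96 and 2.85 in shMed12-2, with shNTC between at 2.13, 1.92 and 2.12. Fgf15 differed by -1.54, and with slide as a fixed block by -0.67, which was not called (adjusted p = 0.17).

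The growth factor gene Fgf8 had one of the largest differences in that direction, and the Nodal antagonist genes Lefty1 and Lefty2 also differed in it. Fgf8 was at 0.83, 0.84 and 0.88 in shMed12-1, at 3.38, 3.16 and 3.42 in shMed12-2 and at 1.91, 2.07 and 2.15 in shNTC (difference -2.47, SE 0.15, adjusted p = 9.0e-10). The shNTC arrays again lay between the hairpins.

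The Nodal antagonists Lefty1 and Lefty2 were well below shNTC with shMed12-1 and close to it with shMed12-2. Lefty1 was at 4.63, 4.68 and 4.71 in shMed12-1, at 6.07, 5.97 and 6.06 in shMed12-2 and at 5.80, 5.81 and 5.87 in shNTC, a difference of -1.36 (adjusted p = 2.1e-11). Against shNTC, Lefty1 changed by -1.15 and by 0.21 (adjusted p = 0.017). Lefty2 fell by 1.84 against shNTC with shMed12-1 and gave -0.01 with shMed12-2, a difference of -1.84, or -1.14 with slide as a fixed block. Over the whole list of TGF-beta, Nodal and BMP genes, 10 of 33 were higher and 10 lower, with a median of 0.06. The lower ones included both Lefty genes and Tgfb2 (-0.93), and the higher ones the activin subunit Inhbb (0.98, and 0.21 on another probe) and the BMP targets Id1 (0.75) and Id2 (0.74). Tgfb2 was not called with slide as a fixed block, nor without shMed12-2 replicates 1 and 3.

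Genes of the neural lineage and of the Notch pathway were also lower in shMed12-1 more often than higher. Of 31 neural genes 13 were lower and 2 higher (median -0.30), and of 20 Notch genes 8 were lower and 2 higher (median -0.25). Zic1, a zinc finger factor of the early neural plate, was at 0.67, 0.56 and 0.47 in shMed12-1, at 2.39, 2.54 and 2.33 in shMed12-2 and at 0.55, 0.72 and 0.86 in shNTC. Here shMed12-1 overlapped shNTC and shMed12-2 stood above both, with a difference of -1.85 (adjusted p = 8.5e-08), or -2.19 on another probe. Nes, the intermediate filament nestin of neural progenitors, had the same pattern.

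Nes was at 0.64, 0.74 and 0.63 in shMed12-1, at 1.66, 1.66 and 1.63 in shMed12-2 and at 0.58, 0.72 and 0.66 in shNTC (difference -0.98, adjusted p = 2.6e-11). The Notch-related factor Hes6 differed by -1.0035 (-1.09 on another probe), the Notch target Hes5 by -0.90 and the ligand Dll1 by -0.88. Hes5 fell by 1.03 against shNTC with shMed12-1 and gave -0.12, not called, with shMed12-2, and Dll1 differed by -0.48 with slide as a fixed block. With slide as a fixed block 6 neural genes and 3 Notch genes were called lower, and 0 and 2 higher. Without shMed12-2 replicates 1 and 3, 4 Notch genes were lower and 2 higher.

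Genes of naive pluripotency, the state of cultured ES cells, did not move as a block. Of 34 tested genes of a list of 37, 8 were higher and 6 lower in shMed12-1 (median -0.10), and with slide as a fixed block 9 were higher and 1 lower (median 0.04). Without shMed12-2 replicate 1 the counts were 6 and 3, and without replicates 1 and 3 they were 4 and 3. Tbx3, a T-box factor of naive cells, was at 2.82, 2.88 and 2.85 in shMed12-1, at 1.29, 1.28 and 1.52 in shMed12-2 and at 2.78, 2.77 and 2.83 in shNTC. Only shMed12-2 departed from the control, by -1.43, and the difference between the hairpins was 1.49 (SE 0.07, adjusted p = 4.4e-11).

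Klf4, a naive pluripotency factor, was lowered by both hairpins to different extents. It was at 1.60, 1.70 and 1.69 in shMed12-1, at 0.81, 0.84 and 0.90 in shMed12-2 and at 2.32, 2.30 and 2.34 in shNTC, so it fell by 0.66 and by 1.47 and differed by 0.81 (adjusted p = 2.2e-10). Spp1 (osteopontin) was 0.72 higher in shMed12-1. Pou5f1, which encodes Oct4, was at 6.44, 6.48 and 7.38 in shMed12-1 and at 7.31, 7.48 and 7.21 in shMed12-2, so shMed12-1 replicate 3 overlapped the other hairpin. Its difference of -0.56 passed narrowly (adjusted p = 0.046) and was -0.26 and not called with slide as a fixed block. Sox2 (-0.62, 95% interval -1.51 to 0.27), Zfp42 (-0.23, -0.57 to 0.11) and Esrrb (-0.29, -0.74 to 0.16) were not called.

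Interferon-induced genes and genes of antigen processing were lower in shMed12-1 more often than higher, and more of them were raised over shNTC in shMed12-2. Of 46 tested genes of a list of 57, 21 were called lower and 3 higher, with a median of -0.23. Under median centring 8 were called lower and the list median was 0.04, still below the 0.0788 over all genes in that setting. Against shNTC, 24 were higher and 4 lower with shMed12-2, and 12 were higher and 8 lower with shMed12-1. With slide as a fixed block 24 were lower and 1 higher in shMed12-1, and without shMed12-2 replicates 1 and 3 there were 17 lower and 2 higher. Transcription of many such genes is driven through the interferon-stimulated response element, whose core pairs a GAAA block with another. The motif, GAAA followed by 2 bases of any kind (NN) and GAAA, was searched on both strands in the 250 bases before the annotated start in RefSeq promoter sequences of GRCm38.p6, overlapping matches included. Of the 21 genes called lower 18 had an entry, and 9 of these carried the motif (9 of 21 entries, 42.9%), against 2.98% of all 32851 promoter entries. The list itself is made of genes known for this response, and the motif was not counted in its other members. This share therefore does not bear on the difference between the hairpins. A match describes these letters and was not tested as a site. The windows of 4 of the 9 genes are shown 5′ to 3′ on the gene's strand, with matches in capitals, because they let the motif be seen beside genes whose values follow: Gbp3 at chr3:142559794-142560043 (plus strand), Gbp7 at chr3:142530086-142530335 (plus strand), Irgm1 at chr11:48871421-48871670 (minus strand) and Isg15 at chr4:156200819-156201068 (minus strand).
Gbp3: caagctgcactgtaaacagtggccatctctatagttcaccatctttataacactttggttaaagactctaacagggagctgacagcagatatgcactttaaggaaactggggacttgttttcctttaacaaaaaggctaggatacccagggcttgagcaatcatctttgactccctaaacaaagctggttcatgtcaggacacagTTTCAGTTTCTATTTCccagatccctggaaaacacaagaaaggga
Gbp7: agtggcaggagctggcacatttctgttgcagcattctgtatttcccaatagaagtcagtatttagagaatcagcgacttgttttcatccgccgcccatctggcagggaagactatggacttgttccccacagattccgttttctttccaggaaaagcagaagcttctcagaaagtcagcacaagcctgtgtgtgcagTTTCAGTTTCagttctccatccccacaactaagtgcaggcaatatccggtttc
Irgm1: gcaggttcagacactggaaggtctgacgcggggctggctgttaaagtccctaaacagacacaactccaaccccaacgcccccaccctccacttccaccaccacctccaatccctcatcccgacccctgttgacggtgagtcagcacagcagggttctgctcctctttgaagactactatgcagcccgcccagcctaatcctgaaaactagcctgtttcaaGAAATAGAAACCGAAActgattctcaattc
Isg15: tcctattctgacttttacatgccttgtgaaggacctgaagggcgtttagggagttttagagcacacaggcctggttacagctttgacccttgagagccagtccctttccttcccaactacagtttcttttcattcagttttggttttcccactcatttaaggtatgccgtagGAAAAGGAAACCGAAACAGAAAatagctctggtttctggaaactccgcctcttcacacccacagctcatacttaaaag

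Gbp3 and Gbp7 encode guanylate-binding proteins and Irgm1 an immunity-related GTPase, which act against intracellular pathogens. Gbp3 was at -1.34, -1.40 and -1.49 in shMed12-1, at -0.20, -0.06 and -0.23 in shMed12-2 and at -1.87, -1.67 and -1.80 in shNTC (difference -1.25, adjusted p = 2.5e-08). The 3 groups were separate, with shMed12-1 0.37 and shMed12-2 1.61 above the control. Irgm1 differed by -0.94 (adjusted p = 3.9e-09) and by -1.08 on another probe, while Gbp7 was not well above background on any shMed12-1 array and was at least 1.25-fold higher in shMed12-2 (adjusted p = 0.00052).

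Isg15, a ubiquitin-like modifier, was at -3.84, -3.83 and -3.87 in shMed12-1, at -3.09, -3.02 and -3.03 in shMed12-2 and at -3.89, -3.93 and -4.01 in shNTC. It was 0.90 above shNTC with shMed12-2 and 0.09 above it, not called, with shMed12-1, a difference of -0.80 (adjusted p = 7.4e-06). Psmb8, a subunit of the immunoproteasome, was at -3.57, -3.54 and -3.58, at -2.14, -2.17 and -2.12 and at -3.26, -3.36 and -3.41 in that order, so the control lay between the hairpins, though shMed12-1 was not called against it (difference between the hairpins -1.42, adjusted p = 4.0e-09, and -1.24 on another probe). Oasl2, a 2'-5' oligoadenylate synthetase-like gene, gave the largest difference of the list, -1.68 (adjusted p = 1.5e-06).

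Not every interferon gene followed. Eif2ak2, the double-stranded RNA sensor PKR, was 0.42 higher in shMed12-1. Ifit3 gave 0.30 with an SE of 0.31 and was not called. Antigen processing genes were split: Psmb8, Psmb10 (-0.45), Tap2 (-0.77) and Tapbp (-0.20, and -0.03 on another probe) were called lower. Psmb9 (0.00052), Tap1 (-0.05), B2m (-0.08), H2-D1 (-0.02) and H2-T23 (0.14) were not called. B2m was called with slide as a fixed block (adjusted p = 0.030). The shMed12-2 arrays lay close together for Psmb8 and Isg15, and their hepatocyte genes differed widely. Other genes of the list were not compared in this way, and whether the patterns share a source was not tested.

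Genes of cholesterol and fatty acid synthesis were lower in shMed12-1 as well, by smaller amounts. Of 36 tested genes of a list of 37, 19 were lower and 3 higher (median -0.23), with 2 lower (median -0.08) under median centring, 14 lower and 1 higher under the slide block and 13 lower and 1 higher without shMed12-2 replicates 1 and 3. The median over all genes was 0.0788 under median centring. Against shNTC, 18 genes of the list were higher and 3 lower with shMed12-2, and 7 were higher and 10 lower with shMed12-1. The CCAAT box, bound by NF-Y in many promoters of this pathway, was found in 10 of 13 genes with an entry among the 19 lower genes (10 of 16 entries, 62.5%), against 33.8% of all entries, searched as CCAAT on both strands in the same 250 bases. The sterol response element, searched as TCACNCCAC, was found in 1 of the 13 genes, Hmgcs1 (6.25% of 16 entries, against 1.05% of all). Hmgcs1 was not called with slide as a fixed block. Neither motif was counted in the other list members, so these shares do not bear on the difference between the hairpins. Of the genes that differed most, the windows of Cyp51 at chr5:4104698-4104947 (minus strand) and Nsdhl at chrX:72918271-72918520 (plus strand) are shown with CCAAT or its complement in capitals.
Cyp51: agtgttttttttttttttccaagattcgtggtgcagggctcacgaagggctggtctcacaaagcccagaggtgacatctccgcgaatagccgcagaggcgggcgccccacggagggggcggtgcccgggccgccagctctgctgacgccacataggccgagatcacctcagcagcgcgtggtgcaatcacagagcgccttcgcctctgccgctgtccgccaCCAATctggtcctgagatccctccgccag
Nsdhl: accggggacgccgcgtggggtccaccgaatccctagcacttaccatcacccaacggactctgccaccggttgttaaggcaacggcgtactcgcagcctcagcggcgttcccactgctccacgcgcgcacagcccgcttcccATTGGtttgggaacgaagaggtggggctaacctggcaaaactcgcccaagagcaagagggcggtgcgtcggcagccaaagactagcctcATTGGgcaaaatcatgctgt

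Cyp51, the lanosterol demethylase of cholesterol synthesis, was at -1.16, -0.96 and -1.05 in shMed12-1, at -0.11, 0.07 and -0.06 in shMed12-2 and at -0.62, -0.64 and -0.66 in shNTC. The control lay between the hairpins, 0.42 above shMed12-1 and 0.60 below shMed12-2, and the difference was -1.02 (SE 0.09, adjusted p = 5.3e-08), or -0.82 and -0.83 on its other probes. On those probes shMed12-1 differed from shNTC by only -0.01 and -0.09. The sterol reductase gene Tm7sf2 differed by -0.78, the sterol dehydrogenase gene Nsdhl by -0.66 and Srebf2, which encodes the transcription factor that controls the pathway, by -0.59 (-0.16 on another probe). Insig1, which holds that factor in the endoplasmic reticulum when sterols are plentiful, was 0.41 higher in shMed12-1 (0.03 on another probe, and not called with slide as a fixed block).

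Targets of p53, the factor activated by DNA damage, were higher in shMed12-1 more often than lower. Of 29 tested genes of a list of 31, 14 were higher and 2 lower (median 0.25), with 8 higher under median centring. The counts were 10 and 0 with slide as a fixed block, and 9 and 2 without shMed12-2 replicates 1 and 3. Perp, a desmosome protein and p53 target, was at 1.95, 2.01 and 2.05 in shMed12-1, at 1.19, 1.21 and 1.16 in shMed12-2 and at 1.18, 1.19 and 1.22 in shNTC.

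The shMed12-2 arrays overlapped shNTC, and the difference of Perp was 0.82 (SE 0.04, adjusted p = 4.7e-11). Pmaip1, which encodes the pro-apoptotic protein Noxa, behaved alike, at 2.18, 2.26 and 2.14, at 1.37, 1.34 and 1.39 and at 1.30, 1.34 and 1.35 (difference 0.83, adjusted p = 1.1e-08). Sesn1, a stress-induced sestrin, had another pattern: it fell by 1.09 against shNTC with shMed12-2 and by 0.17 with shMed12-1, a difference of 0.92, with 0.51 and 1.02 on its other probes. Mdm2, the ubiquitin ligase of p53, was 0.32 above shNTC with shMed12-1 and fell by 0.19 with shMed12-2 (difference 0.51, adjusted p = 1.3e-07). Cdkn1a, the cell cycle inhibitor p21, differed by -0.11 and was not called.

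Genes of the integrated stress and unfolded protein responses were called lower in shMed12-1 more often than higher, 22 of 50 against 6 (median -0.18), and 12 against 1 with slide as a fixed block. The amino acid transporter Slc7a3 was at 3.70, 3.74 and 3.78 in shMed12-1 and at 4.47, 4.48 and 4.48 in shMed12-2 (difference -0.74, adjusted p = 2.2e-08), with shNTC between at 4.28, 4.18 and 4.14. Chac1 and Herpud1 differed by -0.45 each. The transcription factor Atf5 was 0.37 and Ddit3, which encodes CHOP, 0.32 higher in shMed12-1 (Ddit3 not with slide as a fixed block), so the list was not uniform. Of 24 apoptosis genes, 5 were higher and 8 lower, among the latter Bcl2l11, which encodes the pro-apoptotic protein Bim (-0.71). Another probe of Bcl2l11 gave -0.12, so this difference rests on 1 probe. In the fit with slide as a fixed block 1 apoptosis gene was higher and 5 were lower.

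**Figure D3:**
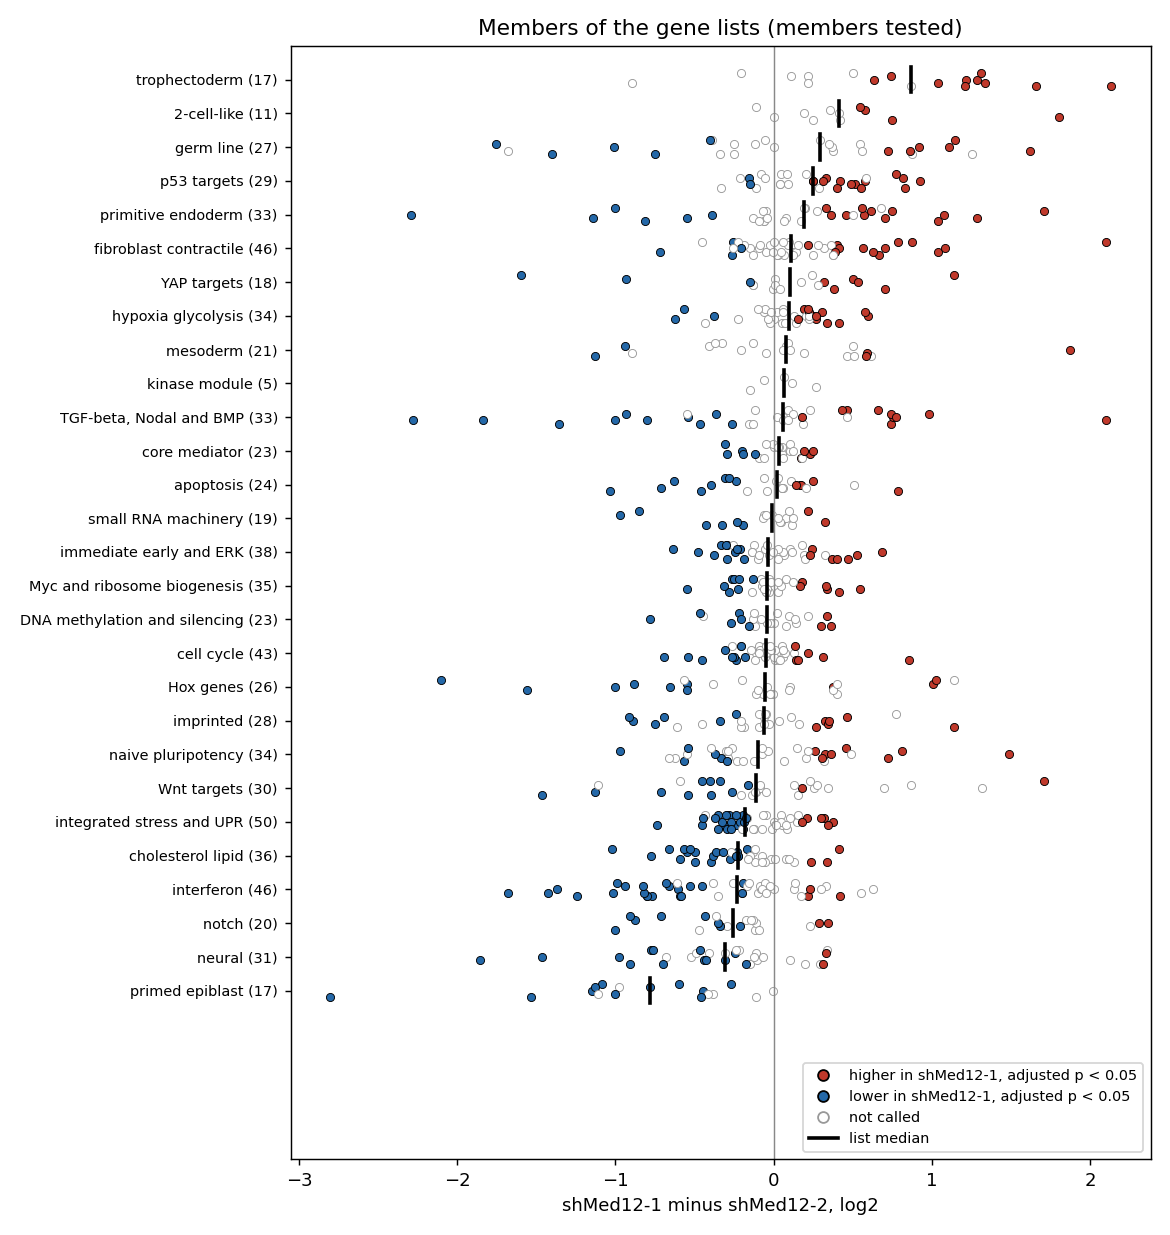
Difference between the hairpins, shMed12-1 minus shMed12-2 in log2 units (horizontal axis), for each tested member of 28 gene lists (vertical axis, with the number of members tested), ordered by list median. Filled points passed an adjusted p under 0.05 (red higher, blue lower in shMed12-1), open points did not, and the vertical bar is the list median, which runs from -0.78 for primed epiblast genes to 0.87 for trophectoderm genes.

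The lists of other lineages had members on both sides. Of 33 primitive endoderm genes 12 were higher and 6 lower (median 0.19), and 8 and 3 with slide as a fixed block. The higher ones included the keratins Krt8 and Krt18, the Wnt inhibitor gene Dkk1 (1.71) and the endoderm factor Gata6 (0.70), whereas Gata4, Sox17 and Foxa2 were not called. Dkk1 was not called with slide as a fixed block, and the other Gata6 probes gave 0.50 and -0.35. Another Sox17 probe gave 1.099, against -0.045 on the probe used, so the Sox17 probes disagreed and its missing call rests on 1 of them. Apoa1 (-2.29), the lowest of this list, is also a hepatocyte gene and was uneven across the shMed12-2 arrays, at 4.16, 0.93 and 2.41 (-0.72, not called, without replicates 1 and 3, and not called with slide as a fixed block). Of 21 mesoderm genes 3 were higher and 2 lower (23.8%, below the 30.3% of all genes).

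Genes of fibroblasts and contractile cells were higher with both hairpins over shNTC, 29 of 46 with shMed12-1 and 24 with shMed12-2. Between the hairpins 13 were higher and 4 lower in shMed12-1 (median 0.11), with Lgals1 (1.08), S100a6 (1.04) and Pdgfrb (0.87) among the higher ones. The markers of the fibroblast itself, such as collagens, had a median log2 ratio between -3.73 and -3.29 in shMed12-1, between -3.95 and -3.73 in shMed12-2 and between -4.05 and -3.25 in shNTC. Acta1, skeletal muscle actin, was raised by both hairpins, at 2.45, 2.41 and 2.55, at 2.49, 2.61 and 2.48 and at 0.59, 0.61 and 0.62 in shNTC.

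Hox genes, which pattern the body axis, and imprinted genes contained large differences in both directions. Hoxa5 had a difference of -2.11, but it was not well above background on any shMed12-1 array, so its level was at least 1.58-fold higher in shMed12-2 (adjusted p = 7.1e-05). Hoxb13 (1.03, well above background on 1 of 3 shMed12-2 arrays) and Hoxb9 (1.01) were higher in shMed12-1. Of 26 Hox genes 3 were higher and 7 lower. The growth factor gene Igf2, expressed from the paternal allele, was at 2.15, 2.12 and 2.30 in shMed12-1, at 1.07, 1.01 and 1.07 in shMed12-2 and at 0.87, 0.84 and 0.85 in shNTC (difference 1.14, adjusted p = 2.3e-11, and 1.17 on another probe). The imprinted genes Snrpn (-0.92), Mest (-0.89) and Grb10 (-0.75) were lower in shMed12-1, and 6 of 28 were called in each direction.

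Among germ line genes, 6 of 27 were higher and 5 lower, from Hormad1 (-1.76, but 0.22 on another probe, and -0.93, not called, with slide as a fixed block), a meiotic chromosome axis gene, to the germ cell surface gene Tex101 (1.62). In each of the fits without shMed12-2 replicate 1, or without replicates 1 and 3, 4 germ line genes were higher and 3 lower. Rpl39l, a ribosomal protein gene, fell by 1.29 against shNTC with shMed12-2, and its difference was 1.14 (adjusted p = 3.4e-11). Of 11 genes of the 2-cell-like state 4 were higher and none lower (36.4% called, near the 30.3% of all genes), led by Arg2 (1.81) and P4ha2 (0.74). Arg2 was not called with slide as a fixed block, and P4ha2 is also on the primitive endoderm list. Zscan4c, Tcstv1, Tcstv3, Zfp352 and Usp17lc were not called, though Zscan4c was with slide as a fixed block (adjusted p = 0.00014). The growth and cell cycle lists were close to the background of all genes: 6 higher and 9 lower of 43 cell cycle genes, 6 and 8 of 35 genes of Myc and ribosome biogenesis, and 3 and 6 of 23 genes of DNA methylation and silencing. These counts with slide as a fixed block were 1 and 4, 3 and 5, and 5 and 1 in the same order, so the last list turned from more lower to more higher genes. Without shMed12-2 replicates 1 and 3 they were 2 and 6, 5 and 3, and 1 and 3. Cdkn2a, the cell cycle inhibitor locus, was 0.86 higher (not called with slide as a fixed block), and the cyclin D partner Cdk6 gave -0.70 (-0.11 on another probe).

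The other lists were mixed. Of 34 hypoxia and glycolysis genes 12 were higher and 3 lower, with the glucose transporter Slc2a1 0.58 higher and the pyruvate dehydrogenase kinases Pdk3 and Pdk1 on opposite sides (0.60 and -0.62). Of 38 immediate early and ERK genes 7 were higher and 11 lower, with Hbegf 0.53 higher and the FGF feedback inhibitor Spry1 at -0.64. Of 18 YAP targets 6 were higher and 3 lower, with the receptor kinase Axl at 1.14 and Fjx1 at -1.60. Of 30 Wnt targets 2 were higher and 10 lower, with Dkk1 at 1.71 and the zinc finger factor Sp8 at -1.47. Of 19 genes of the small RNA machinery 2 were higher and 6 lower, with Lin28b at -0.85. Axl and Lin28b were not called with slide as a fixed block, where 6 hypoxia genes were higher and 3 lower, 1 Wnt target higher and 6 lower, and 2 small RNA genes in each direction. Without shMed12-2 replicates 1 and 3 the immediate early counts were 3 higher and 6 lower, those of YAP targets 4 and 1 and those of small RNA genes 2 and 3.

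Genes whose change from shNTC had opposite signs with the hairpins show the contrast most directly, although both contrasts share the same 3 shNTC arrays. Among the largest of them were Kng1, Fgf5, Slc39a8, Fgf8 and Enpp2, all lower in shMed12-1 and, by the group mean, higher in shMed12-2. For Kng1 the latter rests on shMed12-2 replicates 1 and 3 (3.89 and 2.47), since replicate 2 (0.81) lay below all 3 shNTC arrays (0.97 to 1.06). Slc39a8, a zinc and manganese transporter, was at -1.41, -1.49 and -1.48 in shMed12-1, at 1.16, 1.37 and 1.27 in shMed12-2 and at 0.03, 0.09 and 0.10 in shNTC. No groups overlapped, and the difference of -2.72 (SE 0.08, adjusted p = 5.2e-14) split into -1.53 and 1.19 around the control. Enpp2, which encodes autotaxin, the enzyme that makes lysophosphatidic acid, was at -3.53, -3.56 and -3.68, at -1.25, -1.29 and -1.17 and at -2.28, -2.53 and -2.54 (difference -2.36, adjusted p = 6.6e-14).

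By contrast, some genes moved with both hairpins by amounts that the fit did not separate. Among the highest by their mean over shNTC were Maf, Acta1, Rhoj, Uts2b and Prnd, and the 6 lowest were Prmt8, Lama1, Hkdc1, Bmper, Nlrp4a and D630039A03Rik. Acta1 rose by 1.86 and by 1.92, with a difference of -0.06 (SE 0.07). Hkdc1, a hexokinase, was at 0.67, 0.88 and 1.05, at 0.89, 0.96 and 0.82 and at 2.99, 2.64 and 2.46 in shNTC, and fell by 1.83 and by 1.81. Nlrp4a was not well above background with either hairpin, and Prmt8 and Lama1 had a dim reference, so the intervals of their differences are wide (-1.28 to 1.66 for Lama1).

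**Figure D4:**
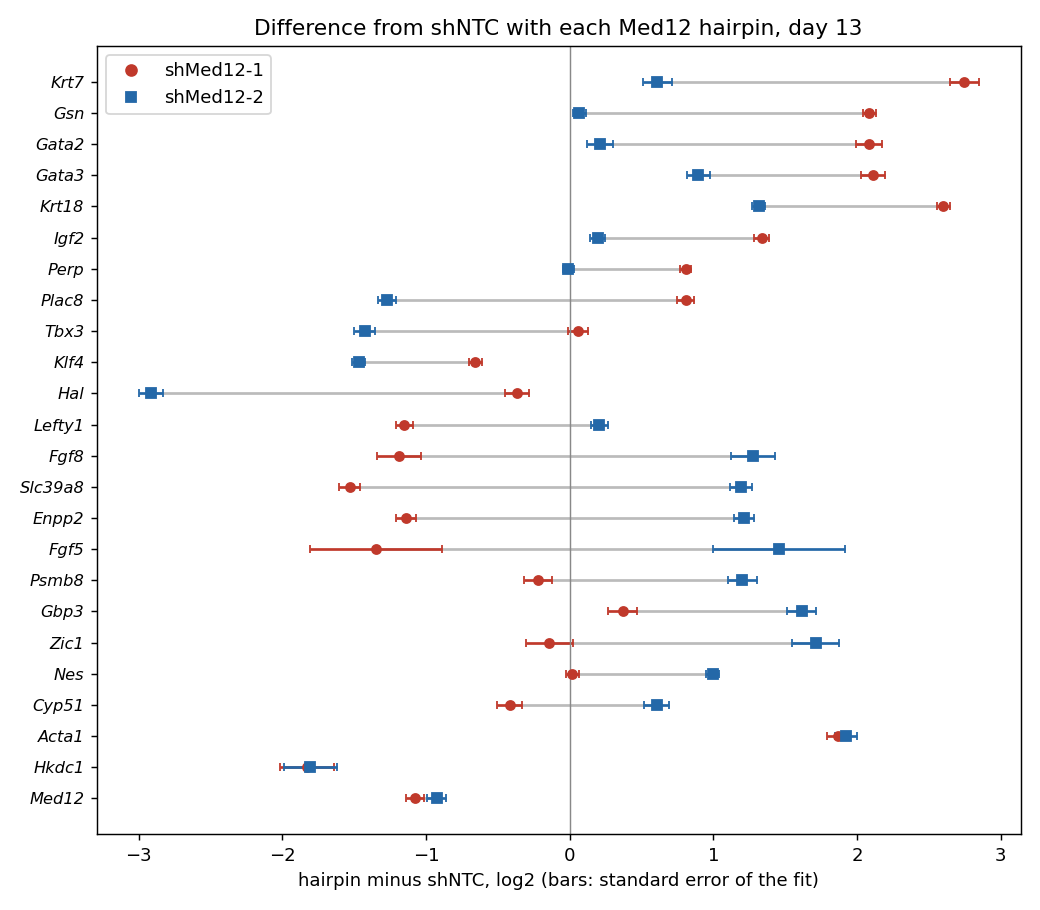
Difference from shNTC on day 13 in log2 units (horizontal axis) with shMed12-1 (red circles) and shMed12-2 (blue squares) for 24 genes (vertical axis); bars are the standard error of the fit, and both hairpins share the same 3 shNTC arrays. Med12, Acta1 and Hkdc1 have nearly the same value with both hairpins, while Fgf5, Fgf8, Slc39a8 and Enpp2 have opposite signs.

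The 15 lowest differences between the hairpins were largely hepatocyte genes. Fgb, Alb, Kng1, Ambp, Vtn, Fgg, Saa2, Fga, Serpina1d, Mug1 and Itih3, all of which encode proteins that the liver secretes into plasma, took 11 of the 15 places, next to Fgf5, Slc39a8, Fgf8 and Cyp4f15. Fgg, a fibrinogen chain, was at 6.96, 2.45 and 5.04 on the shMed12-2 arrays, at 1.41, 1.45 and 1.58 on the shMed12-1 arrays and at 2.22, 1.77 and 2.19 on the shNTC arrays. The hairpins did not overlap, but the shMed12-2 arrays were far apart, and the difference of -3.34 (SE 0.74, adjusted p = 0.0019) was -2.27 without replicate 1 and -0.97, not called, without replicates 1 and 3. Fgb, Alb and Vtn were not well above background on any shMed12-1 array and were at least 15.7-, 10.3- and 2.34-fold higher in shMed12-2 (adjusted p = 0.0032, 0.012 and 4.0e-05). Alb was not called without shMed12-2 replicate 1, and Fgb not without replicates 1 and 3. Fgb, Alb, Ambp, Fgg, Serpina1d, Mug1 and Itih3 were not called with slide as a fixed block.

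Kng1, the kininogen gene, was among the 2 genes of the hepatocyte list that were called lower than shNTC with shMed12-1. It was at 3.89, 0.81 and 2.47 in shMed12-2 but also at 1.06, 1.02 and 0.97 in shNTC, and at -1.23, -2.10 and -1.39 in shMed12-1, where it was not well above background. Its level in shMed12-2 was at least 2.82-fold higher (adjusted p = 3.2e-06), and it was still called without replicates 1 and 3 (difference -2.38).

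The hepatocyte list was drawn up after the shMed12-2 values were seen, and its genes could pass the filter through those arrays alone. The direction of its counts is therefore no separate result. Of the whole hepatocyte list, 44 of 65 genes were tested and 30 were lower and none higher in shMed12-1. That count was 21 lower and 1 higher without shMed12-2 replicate 1, 9 and 1 without replicates 1 and 3 and 7 and 0 with slide as a fixed block. Single arrays of other groups also had raised medians, 0.73 on replicate 2 of a Cdk8 hairpin on day 8, 0.59 on replicate 3 of the other Cdk8 hairpin on day 13 and 0.52 on shNTC replicate 3 of day 8. What made these arrays high was not tested. With the hepatocyte genes set aside, the lowest differences under the same conditions included Fgf5, Slc39a8, Fgf8, Cyp4f15, Enpp2, Tafa4, Nsg2, Hoxa5, Dab1, Cyp2j13, Col2a1, Igfbp5, Zic1 and Ucma, a selection made after the values were seen. Col2a1, a cartilage collagen, was at -1.21, -1.32 and -0.61 in shMed12-1 and at 0.90, 1.22 and 0.83 in shMed12-2 (difference -2.03, adjusted p = 4.1e-05, -1.11 on another probe and -0.95 with slide as a fixed block). Igfbp5 and Cyp2j13 each had another probe near 0 (-0.03 and 0.04), and with slide as a fixed block both, as well as Nsg2, Dab1 and Ucma, were not called.

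**Figure D5:**
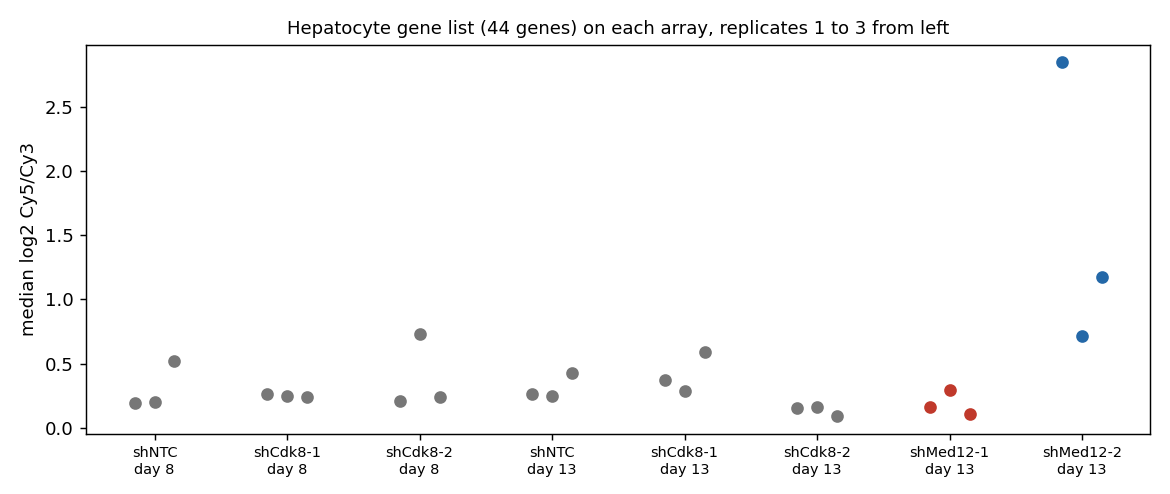
Median log2 Cy5/Cy3 ratio over 44 hepatocyte genes (vertical axis) on each of the 24 arrays, by group (horizontal axis; replicates 1 to 3 from left within a group; red shMed12-1, blue shMed12-2, grey the others). The shMed12-2 arrays lie at 2.85, 0.72 and 1.18, and the shMed12-1 arrays between 0.11 and 0.29.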

How the data were processed

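Spots were quantified with Agilent Feature Extraction 10.7, per the submitters' processing notes. The deposited scanner files hold median spot and background intensities of both channels and a log10 ratio of Cy5 to Cy3 computed by that software once it had subtracted background and normalized the dyes, as the deposited headers state. The value table deposited by the authors gives the same ratios as log2 values (slope 1.00 on every array), with blanks and column medians between -0.00449 and 0.121.

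The plan took normexp and loess values unless the slope of a Med12 array on the mean of its group's other arrays left 0.9 to 1.1. The slope of shMed12-1 replicate 3 was 0.828 with maximum likelihood normexp and 0.825 with the saddlepoint estimate (under which replicate 2 was at 1.1019), so the Feature Extraction log ratio, converted to log2, is used. It lists exactly 0 where neither channel is well above background. Control and outlier spots were left out, and spots of a probe averaged. Kept were probes whose Cy5 signal was well above background on each array of 1 or more of the 8 groups (28316 of 41174 probes), so a gene could pass through the group in which it is high. The brightest kept probe stood for a gene (22404 genes, 13742 with a symbol, named by RefSeq accession through the GRCm38.p6 table).

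Limma 3.58.1 (R 4.3.3) was fitted to all 24 arrays with 8 group means (16 residual degrees of freedom). Two-sided p-values were adjusted by Benjamini-Hochberg across the genes tested, with 0.05 as the threshold for a call. The script was tested on simulated data. Alternatives concerned background correction, normalization, filters, samples in the fit, slide and replicate blocks, array weights and probe summary. Named genes are the kinase module, the 15 highest and 15 lowest called differences with non-overlapping arrays and the same sign under the slide block, 6 with opposite signs against shNTC, 6 and 6 that moved alike, and up to 4 called members a list. Others named with a list (such as Krt8, Gata3, Pou5f1, Isg15, Irgm1, Mdm2 and Sall2) were chosen after their values were seen. Some genes that the rules chose are not reported here. The comparison, the lists and the rules were chosen with earlier results of these data known. The number of arrays limits the precision.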

Additional observations from a re-analysis of the deposited data

Results flagged for a closer look

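For 5 genes the effects of the hairpins against shNTC differed, by the limma test of the difference between the hairpins, and each effect was also called against shNTC, down with shMed12-1 and up with shMed12-2. The differences, shMed12-1 minus shMed12-2, were -3.96 for Kng1, -2.81 for Fgf5, -2.72 for Slc39a8, -2.47 for Fgf8 and -2.36 for Enpp2. These differences kept their sign with slide as a fixed block and without shMed12-2 replicates 1 and 3. For Kng1 the opposite direction against shNTC did not hold without those arrays, since shMed12-2 replicate 2 was at 0.81 and the shNTC arrays at 1.06, 1.02 and 0.97. Kng1 rests on probes near background in shMed12-1, and Fgf5 on a dim reference channel. No outlier test was run within groups of 3 arrays.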

How the results depend on the processing

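Against 6798 genes called, leaving out 1 array at a time gave 5667 to 5963 and Med12 differences of -0.20 to -0.11. The replicate block gave 6539, and same-numbered arrays of the hairpins did not deviate together (r = 0.00696, 0.0778 and -0.0163), so they were not treated as pairs. Genes called and at least 2-fold different (465) fell to 138 with either normexp background correction, 164 with median centring, 166 with Cy5 alone and 203 with probes measured in both channels. Genes called fell to 1157 (817 higher, 340 lower) with median centring, to 4377 (2123 lower) with scaling, to 3796 (2044 higher, 1752 lower) with slide as a fixed block, and to 4041 (1886 higher, 2155 lower) without shMed12-2 replicates 1 and 3, an alternative chosen after seeing the data. With median centring the median over all genes moved from -0.0058 to 0.0788. In that setting 6 lists in place of 15 had a median below 0. The calls were 8 interferon genes lower, 2 cholesterol genes lower and 8 p53 targets higher. Primed epiblast genes lower were 6 with scaling and 7 with the slide block, and p53 targets higher were 9 without shMed12-2 replicates 1 and 3. Med12 differed by -0.30 with Cy5 alone and by -0.24 over all its probes, both called. Uncalled kinase module genes changed sign: Med13l to -0.0024 with both normexp corrections, -0.14 with Cy5 alone, -0.0904 with the slide block and, leaving out 1 array, between -0.036 and 0.17. Ccnc changed to 0.0539 with median centring and 0.14 with the slide block, and Cdk19 to -0.0204 with Cy5 alone. For these changes the cause was not tested.

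Of 135 named genes called, none changed sign under any alternative that measured it. The slide block kept 97 of these calls, median centring 91 and the fit without shMed12-2 replicates 1 and 3 kept 105. Signal over background limits genes that were dim with one hairpin or in the reference.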
